A study of Homo sapiens with 40 samples.

Results

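The comparison described here asks whether IGF2BP3 knockdown changed how far each RNA of a bronchial epithelial cell line was loaded on polysomes, with unstimulated and IL-13-treated cells pooled. For every gene the quantity is the shift in polysome loading, which is the log2 ratio of polysome to input RNA in the siIGF2BP3 line minus the same log2 ratio in the siC line, averaged over both treatments. All 40 libraries of the series entered it, 10 for each of 4 sets (input siC, input siIGF2BP3, polysome siC and polysome siIGF2BP3), and 16735 of 62263 genes had enough counts to be tested. A shift below 0 means that the share of a gene's RNA on polysomes, relative to the other genes of the library, was smaller in the siIGF2BP3 line.

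The cells were BEAS-2B, an immortalised line of human lung epithelium, carrying a constitutive hairpin that was either a control (shControl, genotype control, written siC in the sample titles) or directed at IGF2BP3 (shIGF2BP3, genotype knockdown, written siIGF2BP3). All cells were starved overnight in medium with 2% serum. The cells were then labelled unstim or received 100 ng/ml of the cytokine IL-13, and were harvested 24 h later, although the design text calls the stimulation overnight. With 2 fractions, 2 treatments and 2 lines there were 8 groups of 5 libraries. Each hairpin is represented by 1 line, so an effect of knockdown cannot be told apart from other traits in which these lines differ, and the labels do not say whether the 5 libraries of a group came from separate cultures, so p-values measure the spread between these libraries.

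IGF2BP3 belongs to a family of RNA-binding proteins that bind mRNAs, many of them methylated on adenosine, and are known to affect their stability, localisation and translation. In Frac-seq, cytoplasmic extract is separated on a sucrose gradient, and the mRNAs that carry several ribosomes are sequenced beside the total (input) RNA. A gene's polysome to input ratio is therefore a relative measure of translation. It says nothing of the total amount of polysomes, because each library is scaled to its own depth.

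Input libraries held between 14044352 and 40441061 estimated counts. Polysome libraries held between 9173872 and 34082191 in the siC line and between 1816848 and 33763265 in the siIGF2BP3 line, where 3 libraries were under 5000000. Of 26 airway epithelial markers 13 had a mean of at least 10 CPM (counts scaled to a common library size, the unit used below), with KRT8 at 907 CPM and KRT18 at 741 CPM, while EPCAM (0.577 CPM) and CDH1 (0.625 CPM) were under 1. Of 15 mesenchymal markers 9 were at 10 CPM or more, VIM among them at 1336 CPM. Of 16 defining markers of leukocytes, endothelium and other airway cells 14 were under 1 CPM. The others were CD14 at 16.2 CPM and the endothelial cadherin CDH5, which was at 6.63 CPM in input of the siIGF2BP3 line and 0.709 CPM in input of the siC line.

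The targeted gene was examined ahead of the rest. IGF2BP3 measured between 20.7 and 48.8 CPM, median 31.8, in input of the siC line and between 17.7 and 35.1 CPM, median 25.7, in input of the siIGF2BP3 line. On polysomes it measured between 4.23 and 19.5 CPM, median 11.8, and between 2.60 and 26.4 CPM, median 8.48. The ranges overlapped in both fractions, so every direction given for the knockdown rests on the labels. The line difference was -0.48 in input and -0.12 on polysomes on the log2 scale (edgeR adjusted p 0.957 and 0.886), and the fitted loading shift was 0.35 ± 0.37 (SE). Among its paralogs, IGF2BP2 had a fitted shift of 0.26 ± 0.25 (SE) and IGF2BP1 one of -0.01 ± 0.41 (SE), a value whose sign differed between settings of the analysis.

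No gene passed the test for a loading shift over both treatments. In edgeR's quasi-likelihood test with Benjamini-Hochberg adjustment, 0 of 16735 genes were called at an adjusted p under 0.05 (0%), the smallest adjusted p was 0.0683 (TNS1) and the next was 0.99996. At an unadjusted p under 0.05 there were 320 genes (1.91%), 153 with a higher and 167 with a lower loading in the siIGF2BP3 line, where chance gives 837. Of these 320 genes, 197 had a mean under 1 CPM and 52 a mean of at least 10 CPM. The Wald test of DESeq2 called 13 genes (0.0777%), with fitted shifts between -32.46 and 24.17, and settings of edgeR that left out the 3 shallow libraries, lifted the filter or added a length offset called TNS1 alone. So did leaving out 1 of 4 single libraries, which were unstim siIGF2BP3 polysome replicates 1 and 5, unstim siC polysome replicate 4 and IL-13 siIGF2BP3 polysome replicate 3. For the 8920 genes of at least 10 CPM the median standard error of a shift was 0.242, so that the 95% interval of a typical gene reached 0.492 on the log2 scale to either side, and 95% of the fitted shifts lay between -0.35 and 0.41. Of these genes 15 (0.168%) had a fitted shift over 2-fold.

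The loading itself differed strongly between genes in each line. In the siC line 8961 of 16735 genes (53.5%) were called between polysome and input, 3697 higher and 5264 lower on polysomes, and in the siIGF2BP3 line 8809 (52.6%), 3544 higher and 5265 lower. The gene classes below are therefore given by how many of their members lay above or below 0 and by their median shift, beside the median of -0.03 over all genes tested, of which 54.5% were below 0. With libraries of at least 5000000 counts the median of all genes was 0.03 (44.3% below 0). With the length offset it was also 0.03 (45.2% below 0). Class medians in those settings are to be read beside these values. No class had a called member in edgeR, and no class median was tested. The 13 genes of the DESeq2 test included the class members DHX29, CEP350 and H3C14.

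**Figure D1:**
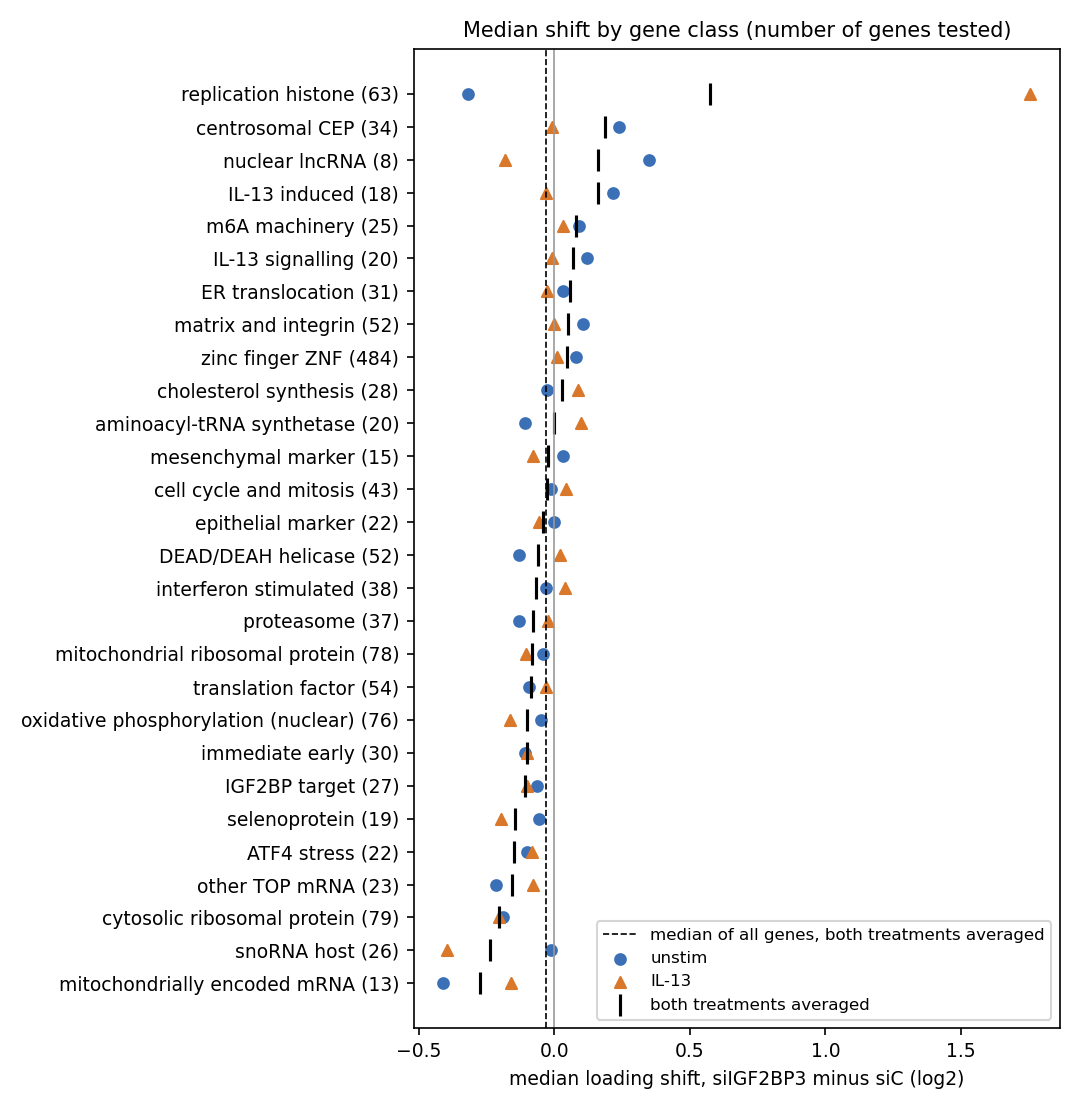
Median loading shift (log2, siIGF2BP3 minus siC) of 28 gene classes, for unstim libraries (circles), IL-13 libraries (triangles) and both averaged (bars), with the number of genes tested in brackets and the median of all genes as a dashed line. Cytosolic ribosomal protein genes lay at -0.19 and -0.21 in the 2 treatments, and replication histone genes at -0.32 and 1.76.

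Ribosomal protein mRNAs lay on 1 side of 0 more uniformly than any other class of more than 30 genes in this fit. They are the classic TOP mRNAs, which begin with a terminal oligopyrimidine tract at the 5′ end: a C followed by a run of C and T (C and U in the RNA), through which growth signalling by mTOR and the protein LARP1 is known to control their entry into polysomes. To show this tract, 30 bases around the annotated start are printed for 3 ribosomal protein genes and RACK1, a scaffold protein of the small ribosomal subunit and also a TOP mRNA, followed by 3 genes with a fitted shift above 0. Sequences are from RefSeq (GRCh38.p14), 15 bases before and 15 bases from the start, 5′ to 3′ on the gene's strand. Capitals mark the longest run of C and T that opens with C within 5 bases of the start, where it is at least 5 bases long. The windows lie at chr22:39319609-39319638 (RPL3, minus strand), chr19:49487593-49487622 (RPL13A, plus), chr9:133348203-133348232 (RPL7A, plus), chr5:181243892-181243921 (RACK1, minus), chr2:112542021-112542050 (POLR1B, plus), chr11:31509752-31509781 (ELP4, plus) and chr7:107580231-107580260 (BCAP29, plus). Each spans the edge between the promoter and the gene's opening exon.
RPL3: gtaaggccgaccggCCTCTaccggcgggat
RPL13A: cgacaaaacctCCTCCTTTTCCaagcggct
RPL7A: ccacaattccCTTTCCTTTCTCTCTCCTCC
RACK1: ggggggcttttCTCTCTCTCTTTCactgca
POLR1B: tttcgttgaagcaacgactttggccggatg
ELP4: agttcctattgggttaacactggaggctct
BCAP29: gccgcggcgtctgacgtcccgcgcgtcggc

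The RefSeq table held a start for 63 of the 79 ribosomal protein genes, and in 43 of them (68.3%) a C at the start itself was followed by at least 4 bases that were each C or T, searched on the gene's strand. The same held for 13 of 16 (81.2%) other TOP mRNAs, for 613 of 11515 (5.32%) genes tested and for 1104 of all 27305 promoters (4.04%). Among genes of at least 10 CPM outside both lists, the 378 with such a start had a median shift of -0.07 (63% below 0) and the 6856 without it one of -0.04 (57.3% below 0).

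Of the 79 cytosolic ribosomal protein genes, which encode the subunits of the ribosome, 78 had a fitted shift below 0 and 1 (RPS24, 0.02) above it, with a median of -0.21. All 79 passed the filter on low counts. Summed over these genes, input libraries measured between 58290 and 93350 CPM, median 68380, in the siC line and between 55170 and 80560 CPM, median 67200, in the siIGF2BP3 line. Polysome libraries measured between 50160 and 81490 CPM, median 65350, in the siC line and between 45920 and 62810 CPM, median 53250, in the siIGF2BP3 line. The sums were thus similar in input, and on polysomes the siIGF2BP3 libraries were mostly lower, though the ranges overlapped. In bulk RNA, a lower level in every cell cannot be told apart from fewer cells with it.

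**Figure D2:**
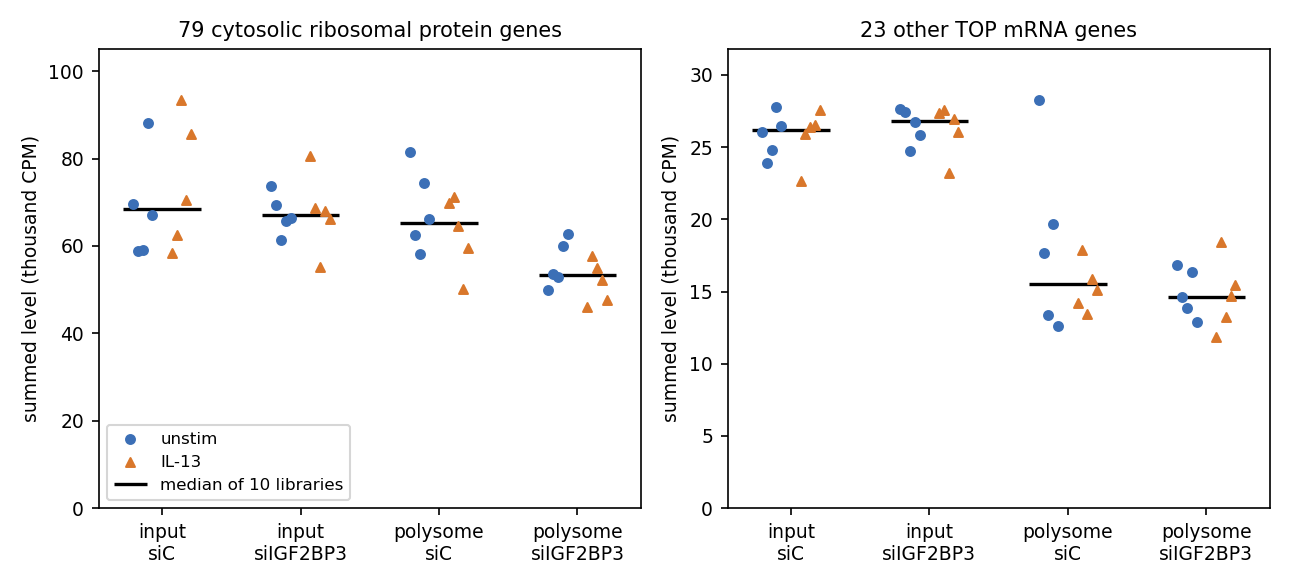
Summed level of 79 cytosolic ribosomal protein genes (left) and 23 other TOP mRNAs (right) (in CPM, drawn in units of 1000), 1 point per library, with unstim as circles, IL-13 as triangles and the median of 10 libraries as a bar. Ribosomal protein medians are close in input and lie apart on polysomes, at 65350 and 53250 CPM. In the panel on the right, 1 unstim polysome library of the siC line stands at 28248 CPM.

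The median shift was -0.21 over 47 genes of the large subunit, all below 0. It was -0.20 over 32 of the small subunit, 31 below 0. The 79 genes are not independent replicates. Their median deviation from the group mean (log2 CPM) had a standard deviation of 0.204 between replicate libraries. The shift was below 0 in both treatments, which share no library, for 70 of the 79 genes and above 0 in both for none, with class medians of -0.19 unstim and -0.21 with IL-13. Expressed as loading, the class median was -0.33 in the siC line, where 20 genes were called higher and 40 lower on polysomes (22.1% and 31.5% of all genes were), and -0.54 in the siIGF2BP3 line, where 10 were called higher and 45 lower (21.2% and 31.5% of all genes). The line difference had a median of -0.29 on polysomes and -0.09 in input. At an unadjusted p under 0.05, 6 members (7.59%) had a lower loading and none a higher one, beside 0.998% and 0.914% of all genes tested.

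These 6 were RPL3, RPLP2, RPL13A, RPL7A, RPL27A and RPL10A, of which the 3 with the smallest p are given in full. RPL3, a core protein of the large subunit, measured between 1415 and 1958 CPM, median 1752, in input of the siC line and between 1423 and 1882 CPM, median 1771, in input of the siIGF2BP3 line. On polysomes it measured between 1943 and 4206 CPM, median 2354, and between 1433 and 2470 CPM, median 2102. Its input levels were alike, while its polysome levels reached lower in the siIGF2BP3 line and overlapped (shift -0.41 ± 0.16 SE, unadjusted p = 0.0154 in edgeR, -0.58 unstim and -0.24 with IL-13).

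RPL13A measured between 1955 and 2942 CPM, median 2331, in input of the siC line and between 1855 and 2508 CPM, median 2314, in input of the siIGF2BP3 line. On polysomes it measured between 1883 and 3543 CPM, median 2542, and between 1554 and 2145 CPM, median 2014. Its shift was -0.33 ± 0.13 (SE), and it was 1 of the 3 ribosomal protein genes called lower between the lines on polysomes, as 0.699% of all genes were (log2 difference -0.39, edgeR adjusted p = 0.0255), beside RPL10 (-0.53, adjusted p = 0.0169) and RPS25 (-0.48, adjusted p = 0.00966). Without the 3 shallow libraries the adjusted p of RPL13A and RPL10 was 0.119 and 0.111 and that of RPS25 0.0115. RPL7A had a polysome median of 4902 CPM in the siC line and 3978 CPM in the siIGF2BP3 line, input medians of 3076 and 3226 CPM, and a shift of -0.32 ± 0.14 (SE).

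The direction of the class median was the same in each of the 52 other settings of the analysis, between -0.28 and -0.14. With only libraries of at least 5000000 counts 77 of 79 genes were below 0 (median -0.18, that of all genes 0.03). Without both unstim siC libraries numbered 1, 75 were below 0 (-0.20), and without the 3 IL-13 input libraries described with the histones, 78 (-0.28).

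The 23 other TOP mRNAs, which encode elongation factors and further proteins of translation and RNA binding, had a median shift of -0.16, with 21 below 0 and 2 above. Their medians were -0.22 unstim and -0.08 with IL-13. RACK1 measured between 1445 and 4838 CPM, median 2254, on polysomes of the siC line and between 1196 and 2605 CPM, median 2207, on those of the siIGF2BP3 line, with a shift of -0.35 ± 0.23 (SE). The shift of EEF1D, an exchange factor of elongation, was -0.27 ± 0.20 (SE), and that of HNRNPA1, a splicing regulator, -0.29 ± 0.21 (SE). The sum stood highest in unstim siC polysome replicate 1, at 28248 CPM. Without both unstim siC libraries numbered 1 the class median was -0.02 with 13 of 23 below 0. With libraries of at least 5000000 counts it was -0.04 with 16 below 0. The medians of all genes in these settings were -0.02 and 0.03.

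Among 54 translation factors 36 were below 0 (median -0.09). EIF4EBP1, which binds the cap-binding protein and holds back initiation, was called lower on polysomes of the siIGF2BP3 line (log2 difference -0.70, edgeR adjusted p = 0.0407, in input -0.40, shift -0.30 ± 0.26 SE). It measured between 27.0 and 60.2 CPM there in the siC line and between 9.53 and 34.7 CPM in the siIGF2BP3 line. With libraries of at least 5000000 counts the class median was 0.03, as was that of all genes, and EIF4EBP1 was no longer called (adjusted p = 0.174). The 20 cytosolic aminoacyl-tRNA synthetases, which charge tRNAs, split evenly, with 10 on each side of 0. Their median shift was -0.003 and had another sign in 30 of 52 settings. They were poorly loaded in both lines (class median -1.07 in siC and -1.01 in siIGF2BP3).

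Ribosomal protein mRNAs are short, and the shift moved with transcript length across the transcriptome. Relative effective length was taken from the ratio of deposited counts to TPM, with 1 as the median gene. Over the 1784 shortest of the genes of at least 10 CPM (relative length up to 0.566) the median shift was -0.11 with 78.1% below 0. In the next 3 groups of that size it was -0.08, -0.04 and 0.02, and over the 1784 longest (above 1.88) it was 0.05 with 38.4% below 0. The line differences moved the same way, from -0.10 to 0.09 in input and from -0.21 to 0.14 on polysomes. In all 52 other settings the median stayed below 0 for the shortest group and above 0 for the longest.

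**Figure D3:**
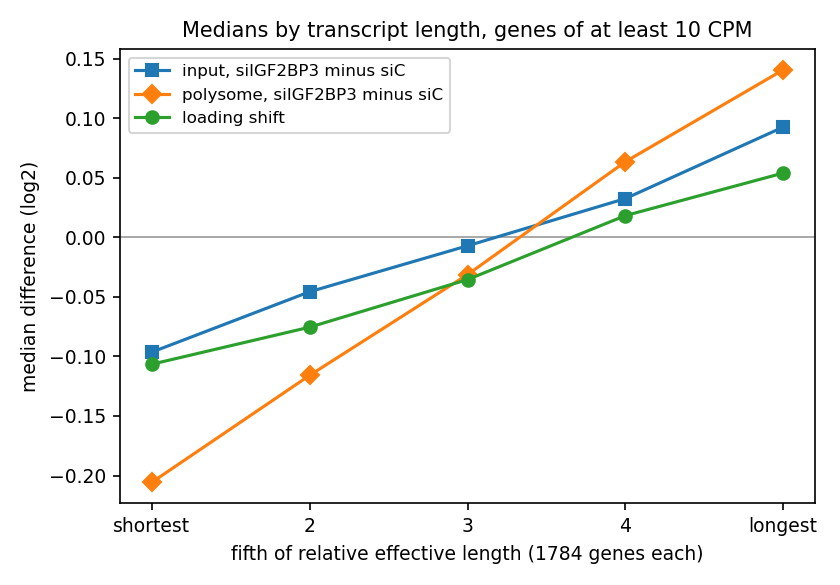
Median log2 difference between the lines in input (squares), on polysomes (diamonds) and as loading shift (circles) over 5 equal groups of 1784 genes of at least 10 CPM, ordered by relative effective length. All 3 lines climb from the shortest to the longest group, the shift from -0.11 to 0.05.

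The ribosomal protein genes can be set beside other short transcripts. The 2745 other genes of at least 10 CPM that were no longer than the longest ribosomal protein gene had a median shift of -0.09 with 74.5% below 0, against -0.21 and 98.7% for the ribosomal protein genes. Their median relative length was 0.501 and that of the ribosomal protein genes 0.192, so the sets were not matched in length. The ribosomal protein median was the lower in all 52 other settings, with a difference of medians between -0.171 and -0.0784. With the length offset the ribosomal protein median was -0.14 and that of the other short genes -0.03. This offset allows for changes of a gene's effective length between libraries, not for differences in length between genes. How far length contributes to the difference between the classes was not tested further.

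Nuclear genes for mitochondrial proteins are also short. The 78 mitochondrial ribosomal protein genes had a median shift of -0.08 (57 below 0), at a loading of 0.75 in the siC line and 0.72 in the siIGF2BP3 line. Of the 76 nuclear genes for respiratory chain and ATP synthase subunits 63 were below 0 (median -0.10). With libraries of at least 5000000 counts 41 of the 78 were below 0 (median -0.01) and 52 of the 76 (-0.05). With the length offset these were 45 (-0.02) and 47 (-0.04). The median of all genes was 0.03 in each of these settings and -0.03 in the main fit. UQCRH, a hinge subunit of complex III, measured between 47.2 and 111 CPM, median 79.4, on polysomes of the siC line and between 24.7 and 105 CPM, median 60.0, on those of the siIGF2BP3 line, with input medians of 142 and 137 CPM (shift -0.37 ± 0.23 SE). MRPL3, of the mitochondrial large subunit, went the other way with 0.35 ± 0.21 (SE).

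The 13 mRNAs of the mitochondrial genome are translated inside mitochondria and not by cytoplasmic polysomes. They were the most depleted class in polysome libraries, with a loading of -3.10 in the siC line and -3.25 in the siIGF2BP3 line. Against 31.5% of all genes in each line, 13 and 12 of these mRNAs were called lower. Their summed level was between 17430 and 50080 CPM in input of the siC line and between 3317 and 10160 CPM on its polysomes. In the siIGF2BP3 line the ranges were 26950 to 53780 CPM and 1481 to 8280 CPM. The median shift of -0.27 (12 below 0) came with a standard error of 0.474 for the typical member, and it was -0.07 with libraries of at least 5000000 counts.

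Proteasome subunits were the best loaded class, with a median loading of 1.46 in the siC line and 1.34 in the siIGF2BP3 line. Against 22.1% and 21.2% of all genes, 33 and 32 of these 37 subunits were called higher. Their median shift was -0.08 with 29 below 0, and 0.07 with libraries of at least 5000000 counts. That setting moved the median of all genes from -0.03 to 0.03. PSMC5, an ATPase of the regulatory particle, measured between 485 and 731 CPM on polysomes of the siC line and between 428 and 733 CPM on those of the siIGF2BP3 line (shift -0.18 ± 0.13 SE). For 52 DEAD and DEAH box RNA helicases the median was -0.06 with 31 below 0, a class whose median changed sign in 7 of 52 settings.

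Centrosomal CEP genes lay on the opposite side, with 23 of 34 above 0 and a median of 0.19 (0.24 unstim, -0.01 with IL-13). They were poorly loaded in both lines, at -1.09 in siC and -0.74 in siIGF2BP3. CEP128 measured between 0.992 and 6.07 CPM, median 2.75, on polysomes of the siC line and between 3.20 and 8.31 CPM, median 4.87, on those of the siIGF2BP3 line, at input medians of 5.70 and 7.28 CPM (shift 0.69 ± 0.35 SE). CEP250, which links the centrioles, was the member called between the lines on polysomes (0.80, edgeR adjusted p = 0.0454, in input 0.49), and with libraries of at least 5000000 counts its adjusted p was 0.131. Their relative length had a median of 1.44. The class median kept its sign in all 52 other settings, between 0.06 and 0.27.

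The 484 zinc finger ZNF genes, mostly transcription factors of the KRAB family, had a median of 0.05 with 267 above 0, and at an unadjusted p under 0.05 they held 5 higher (1.03%) and 4 lower (0.826%), near the share of all genes. ZNF346, which binds double-stranded RNA, had a shift of -0.30 ± 0.13 (SE). For extracellular matrix and integrin genes the median shift was 0.05 (31 of 52 above 0), between -0.05 and 0.29 over the other settings and of another sign in 7 of 52, each of which left out 1 library. Their RNAs were scarce on polysomes, with a median loading of -2.29 in siC and -1.92 in siIGF2BP3. Of the 52, 36 and 35 were called lower, against 31.5% of all genes in each line. For 31 genes of ER translocation the median was 0.06, with another sign in 3 of 52 settings.

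Replication-dependent histone mRNAs end in a stem-loop and carry no poly(A) tail, so a library made by poly(A) selection should hold little of them. Of 63 tested, 50 had a shift above 0 (median 0.58), but the treatments went apart, with -0.32 unstim and 1.76 with IL-13. Their summed input level was between 146 and 218 CPM in unstim siC libraries and between 167 and 579 CPM in IL-13 siC libraries. In the siIGF2BP3 line it was between 168 and 231 CPM unstim and between 170 and 204 CPM with IL-13. The high values belonged to IL-13 siC input replicates 1, 3 and 5.

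Those 3 libraries also held more RNA of other kinds without a poly(A) tail than the rest of their group (RN7SK, RN7SL, RMRP, RPPH1 and small nuclear RNAs), at 3626, 1644 and 795 CPM of the unscaled library. Their group's other libraries held 94.0 and 155, and the highest of the other 37 libraries 941 (unstim siIGF2BP3 input replicate 1). Without them the histone median was -0.32, and the line difference in input was called for 6 genes in place of 68. That left out 3 of the 5 libraries of a group, and what fewer libraries alone would change was not tested. For H1-4, a linker histone, the input range of the siC line was 0.538 to 16.0 CPM against 0.504 to 2.37 CPM in the siIGF2BP3 line, and its shift of 1.20 ± 0.56 (SE) was -0.35 without those libraries. This alternative was chosen after seeing the data.

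**Figure D4:**
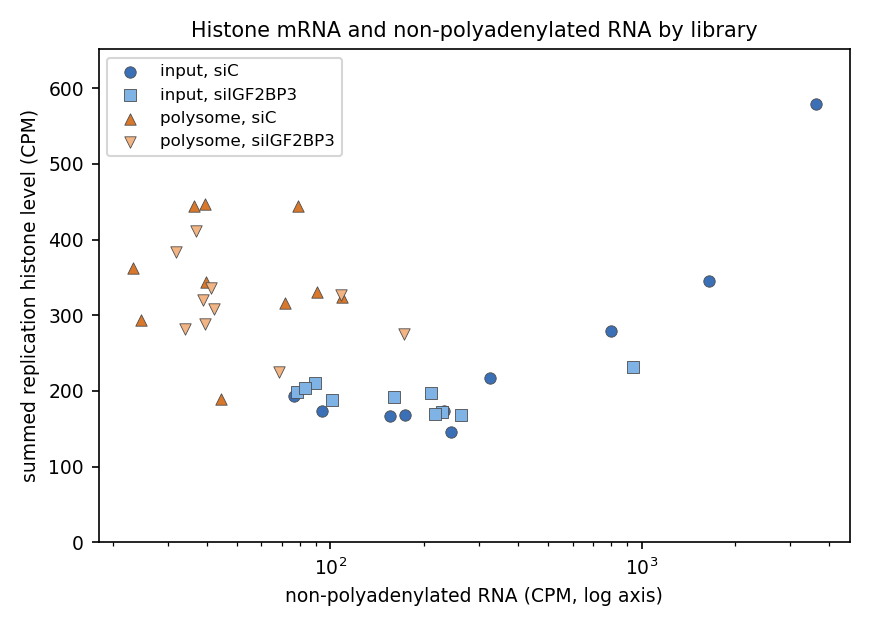
Summed replication histone level (CPM) against RNA without a poly(A) tail (CPM, log axis), 1 point per library, for input and polysome libraries of both lines. The 3 input libraries of the siC line on the right, at 795, 1644 and 3626 CPM, hold 280, 345 and 579 CPM of histone mRNA.

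Noncoding RNAs were described as well. The 26 spliced host RNAs of snoRNAs, which contain short reading frames and are known to be degraded after translation, had a median shift of -0.24 with 19 below 0 (-0.01 unstim, -0.39 with IL-13). Of these, 2 (7.69%) had an unadjusted p under 0.05, both in the lower direction, where 0.998% of all genes tested did so. SNHG15 measured between 2.77 and 12.8 CPM, median 4.87, on polysomes of the siC line and between 0 and 4.89 CPM, median 2.10, on those of the siIGF2BP3 line. Its input medians were 9.30 and 9.50 CPM. The polysome levels of the siIGF2BP3 line were mostly the lower ones (shift -1.11 ± 0.46 SE, unadjusted p = 0.0195, called between the lines on polysomes at an edgeR adjusted p of 0.0459, and at 0.0551, not called, with libraries of at least 5000000 counts). ZFAS1, another host RNA, had a polysome median of 1.63 CPM in the siC line and 0.851 CPM in the siIGF2BP3 line, input medians of 5.07 and 6.96 CPM, and a shift of -1.31 ± 0.50 (SE). The 8 nuclear noncoding RNAs had a median of 0.16, and -0.10 with libraries of at least 5000000 counts. Of these, MALAT1 and NEAT1, poorly loaded in both lines, had shifts of 0.31 ± 0.51 and 0.25 ± 0.38 (SE), and each had another sign in 1 setting.

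Among 27 mRNAs described as bound by IGF2BP proteins 17 were below 0 (median -0.11), and the median was 0.05 without unstim siC polysome replicate 1 and 0.01 without unstim siIGF2BP3 polysome replicate 5. CCND3, a D-type cyclin of that list, was called lower on polysomes (-0.46, edgeR adjusted p = 0.0267, in input -0.27, shift -0.19), and with libraries of at least 5000000 counts it was not (-0.36, adjusted p = 0.174). FOXM1, a transcription factor of the cell cycle, measured between 232 and 425 CPM on polysomes of the siC line and between 228 and 367 CPM on those of the siIGF2BP3 line (shift -0.24 ± 0.14 SE). The 25 genes of the m6A machinery had a median of 0.08, the 20 genes of IL-13 and IL-4 signalling 0.07, and the 18 genes known as IL-13-induced 0.16. The last of these was 0.0064 without unstim siIGF2BP3 polysome replicate 1, 0.010 without unstim siC input replicate 1, -0.11 at 10 CPM or more and -0.10 on culture ratios. CISH, a feedback inhibitor of cytokine receptors, had -0.72 unstim and -0.02 with IL-13.

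USP18, which removes ISG15 and damps interferon signalling, was the interferon-stimulated gene of smallest p. It measured between 16.2 and 22.4 CPM, median 19.7, on polysomes of the siC line and between 6.07 and 13.5 CPM, median 11.0, on those of the siIGF2BP3 line, without overlap. In input it measured between 5.10 and 9.75 CPM, median 7.74, and between 4.30 and 7.30 CPM, median 5.72, with overlap. The line difference was called on polysomes (-0.85, edgeR adjusted p = 0.000692) and not in input (-0.35, adjusted p = 0.607). The shift itself, which tests the difference between these, was -0.51 ± 0.20 (SE, unadjusted p = 0.0154, edgeR adjusted p = 0.99996), -0.59 unstim and -0.42 with IL-13. Over the class of 38, 20 genes were below 0 (median -0.07, with another sign in 10 of 52 settings).

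Of 19 selenoprotein mRNAs 13 were below 0 (median -0.15), among them SELENOW (-0.38 ± 0.36 SE) and SELENOH (-0.34 ± 0.29 SE), at unadjusted p of 0.296 and 0.253. The 22 genes of the ATF4 amino acid stress response had a median of -0.15, and 0.06 in 1 setting. The 30 immediate early genes had a median of -0.10, which reached from -0.61 to 0.57 when single libraries were left out. For 28 cholesterol synthesis genes the median was 0.03, with another sign in 13 of 52 settings. SQLE, the squalene epoxidase, had a shift of 0.41 ± 0.32 (SE). The 43 genes of the cell cycle and mitosis had a median of -0.03, the 22 epithelial markers -0.04 and the 15 mesenchymal markers -0.02. These medians had another sign in 17, 7 and 11 of 52 settings.

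The 12 genes of smallest p in the upward direction divide by level. In 7 of them at least 1 group of 5 libraries held 3 counts or fewer, so their fitted shifts depend on the prior count and bound nothing. The other 5 were ADAM9, POLR1B, ELP4, BCAP29 and LRRC49, and none of them was called. ADAM9, a membrane metalloproteinase that sheds cell surface proteins, measured between 18.8 and 50.5 CPM, median 26.4, on polysomes of the siC line and between 40.4 and 83.5 CPM, median 67.1, on those of the siIGF2BP3 line. In input it measured between 27.3 and 76.0 CPM, median 64.0, and between 38.4 and 104 CPM, median 59.3. Its input ranges largely coincided, and its polysome ranges overlapped only between 40.4 and 50.5 CPM. The shift was 0.93 ± 0.28 (SE, unadjusted p = 0.00200, edgeR adjusted p = 0.99996), with 1.08 unstim and 0.79 with IL-13, and the line difference on polysomes was called (1.07, edgeR adjusted p = 0.00296).

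POLR1B, the second largest subunit of RNA polymerase I, which transcribes ribosomal RNA, measured between 3.20 and 13.8 CPM, median 7.32, on polysomes of the siC line and between 8.54 and 17.9 CPM, median 12.8, on those of the siIGF2BP3 line. Input medians were 20.4 and 19.3 CPM, and the shift was 0.84 ± 0.26 (SE, unadjusted p = 0.00241). ELP4, of the Elongator complex that modifies tRNA wobble bases, had polysome ranges of 1.56 to 10.0 CPM, median 4.06, and 5.49 to 16.7 CPM, median 10.1, with a shift of 1.17 ± 0.38 (SE). BCAP29, an ER membrane protein, had polysome ranges of 2.93 to 14.63 CPM, median 6.74, and 6.115 to 32.75 CPM, median 10.9. Its input medians were 12.9 and 11.8 CPM, and its shift was 0.99 ± 0.34 (SE). All its siIGF2BP3 polysome libraries but 1, unstim replicate 5 at 32.75 CPM, lay within the siC range. In all 4 genes the lines had close input medians and a higher polysome median in siIGF2BP3, with overlapping ranges. All 4 kept their sign in the 52 other settings, ADAM9 between 0.86 and 1.04 and POLR1B between 0.67 and 1.14.

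**Figure D5:**
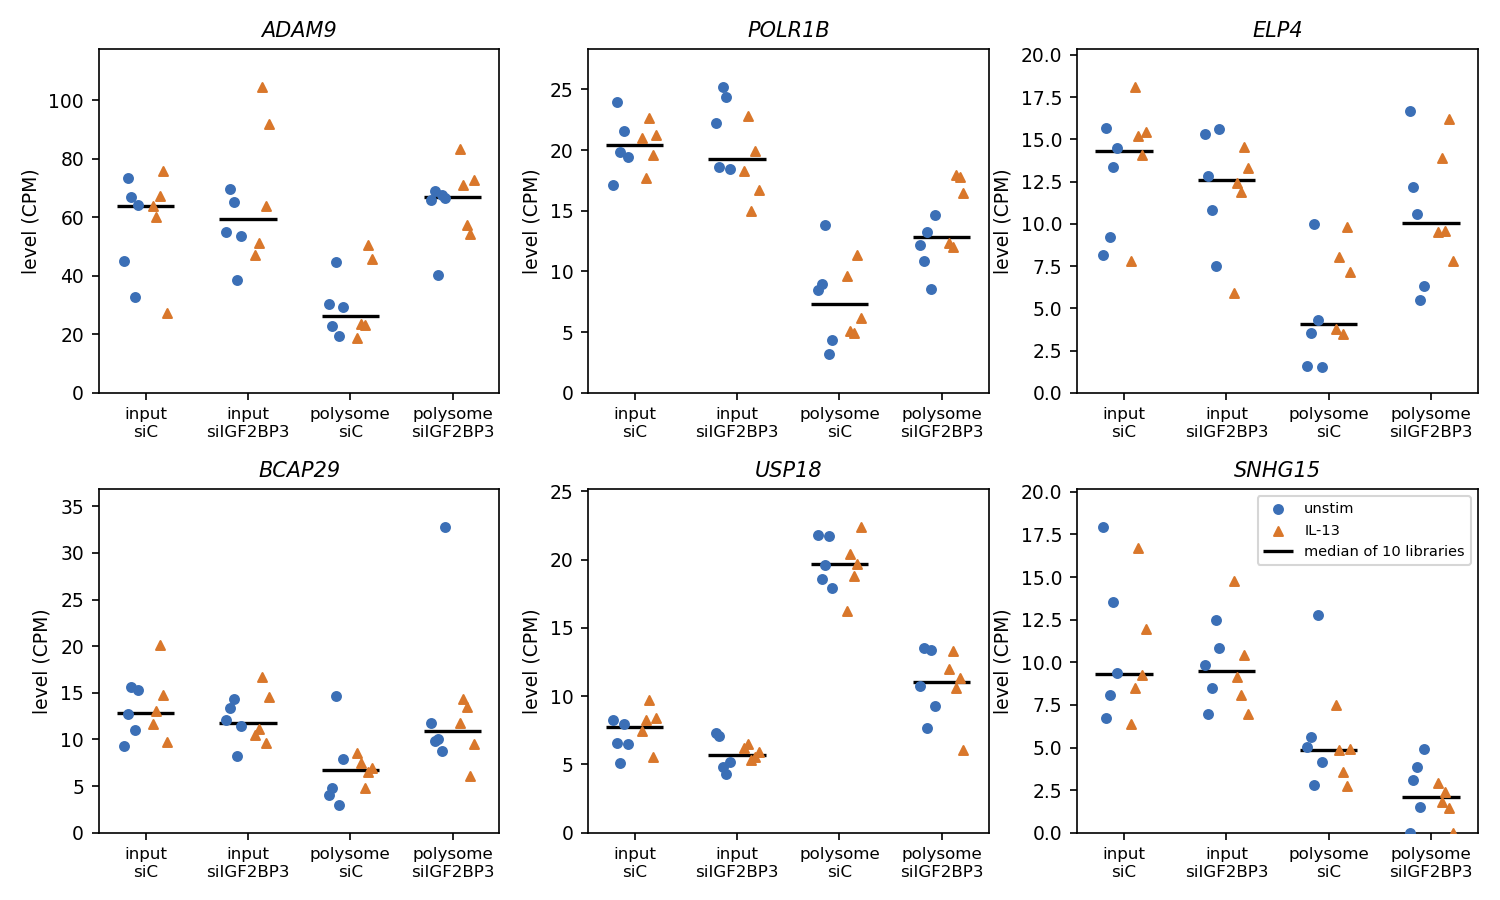
Level (CPM) of 6 genes in every library by fraction and line, with unstim as circles, IL-13 as triangles and the median of 10 libraries as a bar. ADAM9, POLR1B, ELP4 and BCAP29 have higher polysome medians in the siIGF2BP3 line (ADAM9 26.4 and 67.1 CPM). USP18 and SNHG15 have lower ones (USP18 19.7 and 11.0 CPM).

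TNS1, a tensin that links integrins to actin, was the gene of smallest p. On polysomes of the siC line it was at 0 in all 5 IL-13 libraries and at 0 to 3.34 CPM, median 1.73, in the unstim ones. On polysomes of the siIGF2BP3 line it measured between 0.965 and 4.55 CPM, median 4.06, with IL-13 and between 0 and 6.17 CPM, median 5.11, unstim. In input the medians were 13.8 CPM (siC) and 19.1 CPM (siIGF2BP3). With IL-13 its polysome level was at least 106-fold higher in the siIGF2BP3 line, against a floor of 3 counts over the 5 siC libraries. TNS1 was the 1 gene of 16735 (0.00598%) called for the shift within IL-13 (edgeR adjusted p = 0.00786), and 47 of 51 other settings in which it was tested also called it. It was not called with the culture as a block (adjusted p = 0.526) or in limma on culture ratios (adjusted p = 1), with limma voom (0.995), or without IL-13 siC polysome replicate 4 (0.0514).

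ZNF624 and the unnamed RNA ENSG00000289027 had 0 counts in all 10 polysome libraries of the siC line. In the siIGF2BP3 line they had 72 and 681 counts there, which is at least 24.2-fold and 229-fold higher against a floor of 3 counts over the 10 libraries. Such floors cover counting error only. In input, ZNF624 had a median of 1.37 CPM in both lines, and ENSG00000289027 one of 0 CPM in siC and 7.22 CPM in siIGF2BP3.

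The 12 genes of smallest p in the downward direction were mostly noncoding or pseudogene RNAs of low level, among them JTB-DT, ZFAS1, PDCD6P1, MRPL45P2 and H2BC19P. In 3 of the 12 a group of 5 libraries held 3 counts or fewer. JTB-DT, a divergent RNA beside JTB, measured between 0.112 and 1.67 CPM, median 0.967, on polysomes of the siC line and between 0.114 and 0.748 CPM, median 0.434, on those of the siIGF2BP3 line, with input medians of 1.05 and 1.14 CPM (shift -1.65 ± 0.53 SE). TM4SF19, a tetraspanin-like membrane protein, had polysome medians of 1.02 and 0.169 CPM and a shift of -1.77 ± 0.69 (SE). PDCD6P1 and MRPL45P2 are pseudogenes whose reads may be shared with their parent genes. The protein-coding genes at a level above 10 CPM were USP18 and RPL3.

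The treatments were also taken apart. Unstim, edgeR called 0 genes, and 283 (1.69%) had an unadjusted p under 0.05. In IL-13-treated cells it called 1, with 300 genes (1.79%) at that unadjusted level. For the difference between the treatments it called 0 (smallest adjusted p 0.673), with 284 (1.7%) at the unadjusted level. The Wald test of DESeq2 called 10 genes unstim (0.0598%), 10 with IL-13 (0.0598%) and 12 for the difference (0.0717%). Over the 8920 genes of at least 10 CPM the shifts of the treatments, which rest on separate libraries, had a Pearson r of 0.20 and a Spearman rho of 0.32 across genes, with 63.8% of the same sign, 38.6% below 0 in both and 25.2% above 0 in both. Over all 16735 genes Pearson's r was -0.00395 and Spearman's rho 0.11. Genes are not independent replicates, and within a treatment they share the same 20 libraries, so no p is given.

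Between the lines, 231 genes (1.38%) were called on polysomes, 114 higher (0.681%) and 117 lower (0.699%) in siIGF2BP3. In input 68 (0.406%) were called, 52 higher (0.311%) and 16 lower (0.0956%). There were 6 without the 3 IL-13 siC input libraries rich in RNA without a poly(A) tail. The DESeq2 test called 150 in input, and limma voom with weights for library quality 547. Of the 231, 223 had a fitted input difference of the same sign and 55 were called in input too. The median difference of the 114 was 1.05 on polysomes and 0.74 in input, and that of the 117 was -0.72 and -0.41. At an unadjusted p under 0.05 for the shift there were 17 and 20 of them. The number called on polysomes depended on single libraries: it was 397 without unstim siC replicate 1, 138 without unstim siC replicate 4, 142 without IL-13 siC replicate 2 and 146 without unstim siIGF2BP3 replicate 2 (all polysome libraries). The share of higher calls was 49.4%, and 57.1% with DESeq2 size factors, 60.1% with the length offset, 62.1% without the filter and 71.4% with libraries of at least 5000000 counts.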

How the data were processed

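Input and polysome-bound RNA of 8 groups of 5 libraries was sequenced after poly(A) selection. The authors deposited 1 table with estimated counts and TPM for each library. The submitters' processing notes name Trimmomatic, MultiQC, Salmon and DESeq2; versions and genome build are not given in the sources used here. The deposited TPM sum to between 82.3% and 85.9% of a full library over the genes listed, and were used only to derive relative effective length (estimated count divided by TPM). IDs were matched to symbols for 62246 of 62263 genes.

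Estimated counts were rounded to whole numbers. Genes passing edgeR's filter by expression (16735, holding 99.91% to 99.97% of counts) were fitted with edgeR 4.0.16 (R 4.3.3): 8 group means over all 40 libraries, TMM scaling, quasi-likelihood test, Benjamini-Hochberg adjustment over all genes, call at an adjusted p under 0.05, 32 residual degrees of freedom. Errors of shifts are standard errors of the fit, and CPM used TMM-scaled library sizes. Counting error covers only part of the spread. Low depth limits 3 polysome libraries of the siIGF2BP3 line.

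Members and gene lists were chosen with earlier results of these data known. Named genes were the 12 of smallest p in each direction with at least 1 CPM in a set, the 3 of smallest p in each class, the IGF2BP family and genes called within a treatment, less 2 that are not reported here. RPL10, RPS25, RPLP2, RPL27A, RPL10A, RPS24, CEP250, CCND3, CEP350, H3C14, the genes of the ATF4 list named for their line difference and the 15 genes with a shift over 2-fold were named after their values were seen. Same-numbered libraries were compared for pairing. The correlation of their deviations lay between -0.463 and 0.573 over 20 pairs and was over 0.1 in 9. It was highest for unstim siC numbers 1, 3 and 5 (0.545, 0.573 and 0.415), each best within its own pair. The number was not used as a block in the main fit, and fits with a block are among the alternatives. No 2 libraries of a group were copies. Alternatives used limma 3.58.1 and DESeq2 1.42.0. Limma voom was run with a quality weight for each library throughout. The fit of the shift was also run on simulated counts with planted shifts. These had independent libraries and shifts of 2-fold or more in genes of at least 10 CPM. They cannot show how the fit treats smaller shifts or outlying libraries.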

Additional observations from a re-analysis of the deposited data

Results flagged for a closer look

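In each set of 10 libraries, the highest or lowest library was compared with the others by Dixon's gap criterion at the 95% level. Of 132 sets examined 24 held such a library, where chance gives 6.6, and most belonged to genes of low level. All levels are CPM.

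For the IGF2BP family, IGF2BP1 stood at 7.232 in unstim siIGF2BP3 polysome replicate 1 (others up to 3.959), and IGF2BP3 at 26.4 in unstim siIGF2BP3 polysome replicate 5 (others up to 14.72). The latter is a library labelled as knockdown with the highest polysome level of the targeted gene. BCAP29 stood at 32.75 in the same library (others up to 14.32) and at 14.63 in unstim siC polysome replicate 3 (others up to 8.56).

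Among class sums, other TOP mRNAs stood at 28248 in unstim siC polysome replicate 1 (others up to 19660), and replication histones at 578.92 in IL-13 siC input replicate 1 (others up to 345.02). RNA without a poly(A) tail stood at 3626 (CPM of the unscaled library) in the same library (others up to 1644) and at 941 in unstim siIGF2BP3 input replicate 1 (others up to 262.7). ZFAS1 stood at 2.694 in unstim siIGF2BP3 polysome replicate 2.

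The remaining libraries held RNAs that were at or near 0 elsewhere. On polysomes, ENSG00000260537 stood at 9.383 in IL-13 siC replicate 4 and at 20.8 in IL-13 siIGF2BP3 replicate 5. ENSG00000289027 stood at 19.06 on polysomes of unstim siIGF2BP3 replicate 5 and at 12.2 in IL-13 siC input replicate 2. TNFRSF6B stood at 1.206 in unstim siC polysome replicate 3, the 1 library of its set above 0. COMMD3-BMI1, a readthrough transcript, stood at 2.236 in IL-13 siC polysome replicate 4 and 0.6382 in IL-13 siIGF2BP3 polysome replicate 1. ENSG00000290796 stood at 0.4888 in unstim siIGF2BP3 polysome replicate 5. ENSG00000270012 stood at 0.6365 (unstim siC polysome replicate 2), 0.1704 (IL-13 siIGF2BP3 polysome replicate 3), 1.955 (unstim siC input replicate 5) and 2.082 (unstim siIGF2BP3 input replicate 2). In input, ENSG00000254692 stood at 35.2 in unstim siC replicate 1, NFXL1 at 4.483 in unstim siC replicate 2 and MRPL45P2 at 1.897 in unstim siIGF2BP3 replicate 2.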

How the results depend on the processing

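Each result was recomputed under 52 other settings, 40 of which left out 1 library. Of 103 named genes 92 kept the sign of their shift in all of them. The cause of the changes below was not tested. The DESeq2 Wald test called 13 genes for the averaged shift, 10 unstim, 10 with IL-13 and 12 for their difference, and 532 and 150 between the lines on polysomes and in input. Limma voom with weights for library quality called 0 genes for the IL-13 shift. It called 130 between the lines on polysomes (70% higher) and 547 in input. Without the filter 1 gene was called for the averaged shift and 140 on polysomes. At 10 CPM or more 0 were called for the IL-13 shift, since TNS1 was not tested, and 60.2% of polysome calls were higher. With libraries of at least 5000000 counts, and with the length offset, 1 gene was called for the averaged shift. Without both unstim siC libraries numbered 1 there were 475 polysome calls. Without the 3 IL-13 siC input libraries rich in RNA without a poly(A) tail, chosen after seeing the data, 6 genes were called in input and the histone median was -0.32. DESeq2 size factors moved the median of all shifts from -0.031 to -0.0044.

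With the replicate number as a block, 0 genes were called for the averaged shift, 207 and 64 between the lines and 8895 and 8699 for loading, and no call count moved by over 1.5 times. Of the 20 pairs of same-numbered libraries 6 correlated best within the pair. With the culture as a block, and in limma on culture ratios, 0 genes were called for the averaged and 0 for the IL-13 shift, and line contrasts could not be fitted.

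Of the named genes, 11 changed sign in a setting, some with shifts near 0 and some with large ones. H1-4 had 1.20 in the main fit. ENSG00000289027 had 7.58 to 8.46 when single libraries were left out. IGF2BP1 had 0.031 with size factors, 0.023 in the DESeq2 test, 0.11 with voom, 0.16 without both unstim siC libraries numbered 1 and 0.12 with the length offset. CDH5 had 0.015, 0.030 and 0.027 with size factors, the DESeq2 test and voom, 0.029 on culture ratios, 0.062 without those libraries numbered 1 and 0.36 without the 3 input libraries. On culture ratios ENSG00000289027 had -0.0051 and NEAT1 -0.071. With voom H19 had 0.47 and TGM2 0.099. CD14 had -0.090 with libraries of at least 5000000 counts, and H1-4 -0.35 without the 3 input libraries.

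Leaving out single libraries gave 0 to 1 genes for the averaged, unstim, IL-13 and difference shifts, 138 to 397 on polysomes, and an IGF2BP target median from -0.15 to 0.052. Shifts ranged from -0.21 to 0.22 for IGF2BP1, -0.26 to 0.28 for CDH5, -2.59 to 0.71 for DUSP6, -2.03 to 1.25 for NR4A1, -1.89 to 0.072 for TGM2, -5.60 to 1.31 for H19, -0.14 to 0.65 for MALAT1 and -0.081 to 0.49 for CD14.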

Other observations

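Of 22 genes of the ATF4 response, which supplies amino acids under stress, 1 was called higher and 4 lower in the siIGF2BP3 line on polysomes (0.681% and 0.699% of all genes were), and 1 higher and 2 lower in input (0.311% and 0.0956%). CHAC1, which degrades glutathione, was lower in the siIGF2BP3 line by -2.66 on polysomes and -2.49 in input (log2, edgeR adjusted p = 0.0046 and 0.00913), with a shift of -0.16. SLC7A5, a leucine transporter, was higher by 1.06 and 1.10 (adjusted p = 0.0125 and 0.0124), with a shift of -0.03. The number of input calls was lower without the 3 IL-13 siC input libraries rich in RNA without a poly(A) tail. Without them 6 genes were called in input in place of 68, at a smallest edgeR adjusted p of 0.0170. These 6 were not looked up by gene. Calls for loading in the siC line went from 8961 to 7870. The setting leaves out 3 of the 5 libraries of a group, and what fewer libraries alone would change was not tested. On polysomes, the serine synthesis genes PHGDH (-0.91, edgeR adjusted p = 0.0494), PSAT1 (-1.41, 0.0471) and PSPH (-0.95, 0.0216) were called lower. Their shifts were -0.14, -0.21 and -0.60 ± 0.31 (SE), the last beside an input difference of -0.35. With libraries of at least 5000000 counts none of these 3 was called (adjusted p = 0.0961, 0.183 and 0.0881). Without both unstim siC libraries numbered 1, PSAT1 was at -0.62 (edgeR adjusted p = 0.0244).

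Among the 15 genes of at least 10 CPM with a fitted shift over 2-fold, RN7SL1 (1.20 ± 0.66 SE), RN7SL2 (1.27 ± 0.64 SE), RN7SK (1.17 ± 0.83 SE) and RPPH1 (1.34 ± 0.75 SE) encode RNAs without a poly(A) tail, and BCYRN1 (1.20 ± 0.66 SE) is a short noncoding RNA. RN7SL, RN7SK and RPPH1 are among the RNAs in which the 3 IL-13 siC input libraries were rich. Whether their shifts rest on those libraries was not tested. At 10 CPM or more, 12 genes were of another type than protein-coding, long noncoding or pseudogene. Their median shift was -0.40 unstim and 2.64 with IL-13. DNAJC13, an endosomal protein, had 1.88 ± 0.80 (SE) and ORAI2, a calcium channel subunit, -1.32 ± 0.58 (SE), at unadjusted p of 0.0248 and 0.0274, and neither was called in edgeR.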
